A study of Mus musculus with 21 samples.

Results

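Knockdown of Nfib was set directly against knockdown of Nfia in VDR cells, a mouse line that the labels call medulloblastoma, by the places in the genome where open chromatin was found. Open chromatin was mapped with Omni-ATAC, a transposase assay that cuts and tags accessible DNA. The 3 libraries of siNfib cells and the 3 libraries of siNfia cells are 6 of the 21 libraries of the study, chosen by their labels alone. The 3 libraries of cells given a control siRNA (siNC) serve as context and as a source of the spread between replicates. The remaining libraries came from untreated VDR cells, from granule neuron progenitors (GNP, titled Ptch1GNP in the labels) at postnatal day 7, from hyperplasia (titled PNC) at day 28, both taken from Atoh1EGFP cerebella on a Percoll gradient, and from medulloblastoma tumors of which EGFP-positive cells were sorted. VDR is 1 cell line. The reagent is uncertain, since the design text names siRNA but the list names carry the prefix sh. The time after treatment and the degree of knockdown are not given in the sources used here. The deposited values are peak summits and do not measure either transcript, so the knockdowns are not checked here. The labels do not say whether replicates were separate cultures, so p-values measure the spread between these libraries, which may be technical.

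NFIA and NFIB belong to the nuclear factor I family, together with NFIC and NFIX. These proteins bind DNA as homodimers or heterodimers at a palindrome of which each subunit reads TTGGC, and they share a closely related DNA-binding domain. In the cerebellum they are known for the maturation of granule neurons, including dendrite formation, axon extension and the timing of late genes, and NFIA and NFIB are also known for gliogenesis in the spinal cord and forebrain. Medulloblastoma of the Sonic hedgehog type arises from the granule lineage.

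Each library is a list of summits ranked by the score of the authors' peak caller, and the 100000 highest summits of every list were used so that lists of equal length were compared. Summits were merged by rank into 500 bp regions that do not overlap, and a region was counted as occupied in a library that had a kept summit inside it. Of 105205 regions occupied in at least 1 of the 6 libraries, 3803 (3.61%) were occupied in 3 of 3 siNfib and 0 of 3 siNfia libraries, called siNfib-only here. Another 2605 (2.48%) were occupied in 3 of 3 siNfia and 0 of 3 siNfib libraries, called siNfia-only, and 37446 (35.6%) were shared by all 6. No test was made for a single region, because 3 libraries against 3 cannot give an exact p below 0.1.

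Gene promoters were rare among these regions, and the clearest of them are shown here because they are the places where sequence was given. In 32851 RefSeq windows from 250 bases before to 50 bases after a transcription start, 42 windows of 37 genes held a kept summit of 3 of 3 siNfib libraries and had no kept siNfia summit in the window or within 500 bp of it. The reverse held for 21 windows of 18 genes, against 8431 windows occupied in all 6 libraries. The 250 bases before the start are printed 5′ to 3′ on the strand of the gene, from RefSeq on GRCm38.p6 (mm10). They are given for 3 genes of each class with the highest-ranked summits, chosen after their values were seen. Genes with a Gm symbol were passed over, which left out Gm39675, Gm33418 and Gm32067 in the siNfia-only class. Capitals mark the NFI monomer site TTGGC on either strand. The siNfib-only windows are Ptprg (a receptor-type tyrosine phosphatase) at chr14:12189693-12189942 on the plus strand, Eml1 (a microtubule-associated protein) at chr12:108410383-108410632 on the plus strand and Klhl35 (a kelch-like protein) at chr7:99465754-99466003 on the plus strand. The siNfia-only windows are Lgals3bp (a secreted galectin-3-binding glycoprotein) at chr11:118401960-118402209 on the minus strand, Kat2b (the histone acetyltransferase PCAF) at chr17:53583876-53584125 on the plus strand and Nfe2l3 (a cap'n'collar bZIP factor) at chr6:51432419-51432668 on the plus strand.
Ptprg: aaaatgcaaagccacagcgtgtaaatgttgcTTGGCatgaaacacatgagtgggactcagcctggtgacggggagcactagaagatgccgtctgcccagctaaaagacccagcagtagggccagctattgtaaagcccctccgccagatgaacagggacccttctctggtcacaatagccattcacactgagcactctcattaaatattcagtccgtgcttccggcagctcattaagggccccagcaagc
Eml1: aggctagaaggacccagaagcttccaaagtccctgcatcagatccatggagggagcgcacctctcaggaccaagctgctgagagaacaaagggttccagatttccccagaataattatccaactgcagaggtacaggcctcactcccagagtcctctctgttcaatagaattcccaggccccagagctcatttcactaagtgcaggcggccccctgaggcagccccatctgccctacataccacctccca
Klhl35: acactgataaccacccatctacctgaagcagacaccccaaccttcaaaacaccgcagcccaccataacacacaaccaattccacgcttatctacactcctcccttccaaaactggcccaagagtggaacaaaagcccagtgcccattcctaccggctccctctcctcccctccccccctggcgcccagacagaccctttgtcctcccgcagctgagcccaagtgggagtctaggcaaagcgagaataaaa
Lgals3bp: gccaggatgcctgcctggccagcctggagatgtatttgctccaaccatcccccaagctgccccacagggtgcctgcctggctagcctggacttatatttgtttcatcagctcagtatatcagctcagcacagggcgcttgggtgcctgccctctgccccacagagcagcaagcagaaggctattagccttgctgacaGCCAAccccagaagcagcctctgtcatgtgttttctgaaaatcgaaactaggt
Kat2b: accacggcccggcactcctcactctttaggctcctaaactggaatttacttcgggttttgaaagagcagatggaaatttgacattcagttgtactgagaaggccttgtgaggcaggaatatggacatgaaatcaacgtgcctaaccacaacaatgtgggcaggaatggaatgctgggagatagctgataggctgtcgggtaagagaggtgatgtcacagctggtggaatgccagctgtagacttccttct
Nfe2l3: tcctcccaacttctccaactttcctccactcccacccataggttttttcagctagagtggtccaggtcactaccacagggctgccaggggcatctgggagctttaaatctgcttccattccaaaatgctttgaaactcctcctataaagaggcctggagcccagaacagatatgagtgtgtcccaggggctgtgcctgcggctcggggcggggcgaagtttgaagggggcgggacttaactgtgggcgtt

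At the Ptprg start, which lies 636.5 kb inside the gene body and is therefore an internal one, the siNfib summits ranked 13550, 12113 and 17260 and lay 69, 44 and 43 bases before it, with no kept summit of a siNfia or siNC library within 500 bp. At Eml1 the siNfib summits ranked 10431, 14694 and 21954, with no kept siNfia summit and 1 kept siNC summit within 500 bp (rank 78695, replicate 1), and this start lies 39.6 kb inside the gene body. At Klhl35 the siNfib summits ranked 27767, 29856 and 43794, and all 3 siNC libraries held the region at ranks 55168, 83004 and 87817. The 3 printed siNfia-only promoters were weaker: the siNfia summits ranked 42905, 34826 and 55264 at Lgals3bp, 37293, 57637 and 63452 at Kat2b, and 41781, 76443 and 61171 at Nfe2l3. Kept siNC summits lay within 500 bp of all 3, at rank 96255 in replicate 1 and 67858 in replicate 3 for Lgals3bp, 81294 and 87023 in replicates 1 and 2 for Kat2b, and 89248, 57270 and 82558 for Nfe2l3. Each of the 6 windows had a weaker summit within 500 bp, ranked beyond 100000, in the whole list of at least 1 library of the other knockdown. Some lay close to that cut. At Nfe2l3 all 3 siNfib libraries had one, at ranks 114835, 100132 and 108902. At Klhl35 siNfia replicate 1 had one at rank 103919. Those at Ptprg, Eml1, Lgals3bp and Kat2b ranked between 113305 and 162039. The Klhl35 and Kat2b starts lie 2.9 and 17.4 kb inside their gene bodies. At Gm39675, which was passed over, the siNfia summits ranked 36435, 24599 and 46385.

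Of the 6 printed sequences, Ptprg and Lgals3bp held 1 NFI monomer site each and the other 4 held none. The passed-over siNfia-only genes Gm39675, Gm33418 and Gm32067 held 4, 2 and 2 sites in their 250 bases. Over the whole 300-base windows, searched on both strands, TTGGC was present in 42.9% of the 42 siNfib-only and 66.7% of the 21 siNfia-only windows with no kept summit of the other knockdown within 500 bp, against 46.7% of all windows. In the whole lists only 5 siNfib-only and 0 siNfia-only windows had no such summit. Without that requirement it was in 44.4% of the 108 siNfib-only windows and in 25 of the 50 siNfia-only windows. The AP-1 heptamer TGANTCA was in 11.9% of the 42 and 14.3% of the 21 windows, in 6.48% of the 108 and 4 of the 50, and in 7.81% of all windows. The E-box CAGNTG was in 76.2% of the 42 and 57.1% of the 21 windows, in 58.3% of the 108 and 25 of the 50, and in 51.4% of all windows. The shares in the larger sets thus lay nearer to those of all windows. Windows occupied in all 6 libraries had other shares, with TTGGC in 53.3%, TGANTCA in 3.77% and CAGNTG in 40.8% of 8431. The full NFI palindrome is TTGGC, 5 bases of any kind and GCCAA, so that it contains the monomer site on both strands. It was in 0 of the siNfib-only and siNfia-only windows and in 0.0365% of all windows. The GLI nonamer GACCACCCA was in 1 of the 108 siNfib-only windows, 0 of the 50 siNfia-only windows and 0.253% of all windows. These shares describe letters in a fixed window of few promoters and were not tested.

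The siNfib lists were stronger than the siNfia lists, and this moves with every comparison that follows. The whole lists held 218177, 206240 and 279584 summits in siNfib libraries, 195418, 167964 and 191571 in siNfia libraries and 192817, 228691 and 221755 in siNC libraries. The score of the summit at rank 100000 was 8.25, 8.36 and 17.4 in siNfib libraries, 5.50, 5.03 and 7.23 in siNfia libraries and 4.95, 5.96 and 9.61 in siNC libraries. No siNfib value overlapped a siNfia value, while siNC replicate 3 stood above siNfib replicates 1 and 2. Read depth is unknown, and the effect of a siRNA and the strength of a library cannot be told apart from these lists.

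The stronger lists also held more summits near gene ends. Of the 100000 kept summits, 31.5%, 31.8% and 32.8% lay within 1 kb of an end of a protein-coding gene in siNfib libraries, against 30.0%, 29.4% and 30.9% in siNfia libraries and 28.4%, 30.7% and 32.2% in siNC libraries. The groups did not overlap, the difference of means was 1.96 percentage points, and the exact two-sided permutation p was 0.1, the smallest that 3 libraries against 3 allow. In the whole lists the sign was the opposite (-1.05 points, exact permutation p 0.4).

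**Figure D1:**
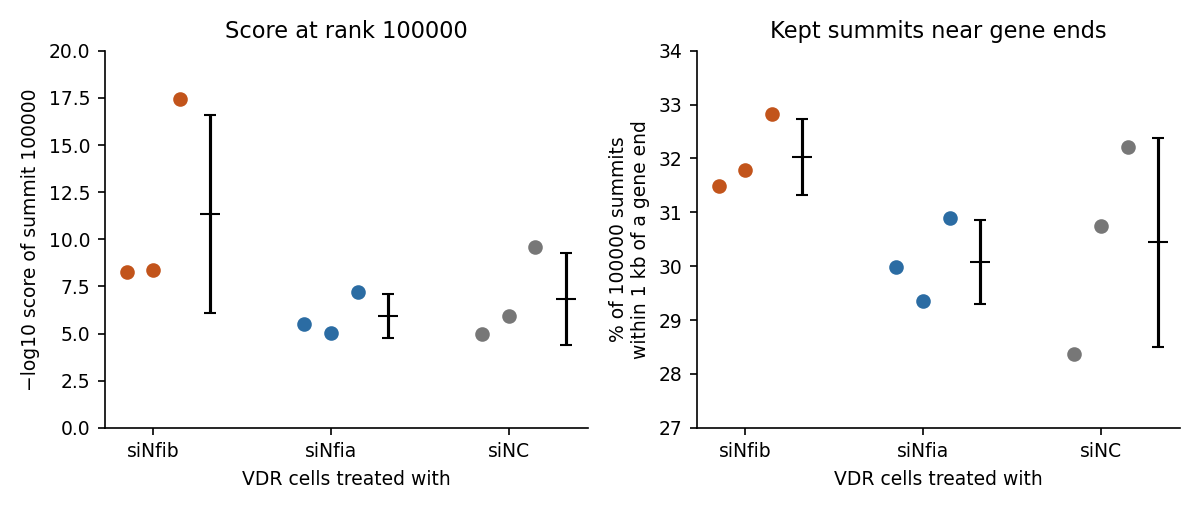
Left, score (−log10) of the summit at rank 100000 and right, percent of the 100000 kept summits within 1 kb of a gene end, for each of the 3 libraries of siNfib, siNfia and siNC cells (points), with mean and SD (bars). The 3 siNfib libraries lie above the 3 siNfia libraries in both panels, and the siNC libraries span the range of siNfia and reach into that of siNfib.

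The region sets of siNfib libraries were more like each other than like those of siNfia libraries, which was less clear for siNfia. The Jaccard index, which is the regions shared by 2 libraries over the regions held by either, averaged 0.742 between siNfib libraries (0.713 to 0.758, 3 pairs), 0.629 between siNfia libraries (0.600 to 0.658, 3 pairs) and 0.595 between a siNfib and a siNfia library (0.564 to 0.641, 9 pairs). The siNfia pairs thus overlapped in range with the mixed pairs, and the siNfib pairs did not. With the 50000 highest summits the averages were 0.761 within siNfib, 0.681 within siNfia and 0.609 between them, and there the lowest siNfia pair (0.663) lay above the highest mixed pair (0.636). Between knockdown and control cells the mean index at 100000 summits was 0.594 for siNfib with siNC and 0.598 for siNfia with siNC (9 pairs each), and at 50000 summits these were 0.618 for siNfib and 0.646 for siNfia. Replicates of siNC averaged 0.610 (0.555 to 0.693, 3 pairs) at 100000 and 0.678 at 50000. At 100000 their range overlapped with that of the mixed siNfib and siNfia pairs.

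The regions that set the knockdowns apart differed in how often siNC libraries held them. Of the 3803 siNfib-only regions, 2268 (59.6%) were held by none of the 3 siNC libraries and 298 (7.84%) by all 3. Of the 2605 siNfia-only regions, 497 (19.1%) were held by none of the siNC libraries and 985 (37.8%) by all 3. A siNC library held 22.5% ± 1.31 of the siNfib-only regions and 60.1% ± 5.05 of the siNfia-only regions (SD, n = 3 libraries), against 56.1% of all regions of the 6 libraries. Most siNfib-only regions were thus absent from control lists of the same length, and siNfia-only regions were about as common there as regions in general. At 50000 summits the same shares were 60.2% in no siNC library and 9.43% in all 3 for the 2290 siNfib-only regions, and 16.9% and 46.7% for the 1927 siNfia-only regions.

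Regions set apart at 50000 summits were largely other regions than at 100000. Of the 2290 siNfib-only regions at 50000, 710 (31.0%) overlapped a siNfib-only region at 100000, which is 18.7% of the longer list. Of the 1927 siNfia-only regions at 50000, 411 (21.3%) did so, which is 15.8% of the longer list. Absence here means a low rank: only 1559 siNfib-only regions had no summit at all in the whole siNfia lists, and only 303 siNfia-only regions had none in the whole siNfib lists, which are the longer ones. With the whole lists, of unequal length, the counts were 9622 siNfib-only and 1531 siNfia-only regions. Requiring that no kept summit of the other knockdown lay within 500 bp of the region centre left 3271 siNfib-only and 2322 siNfia-only regions.

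Both classes were distal, with ranks close to those of regions in general. Within 1 kb of a gene end lay 7.23% of siNfib-only and 4.34% of siNfia-only regions, against 34.7% of the shared regions and 20.4% of all. Gene bodies held 59.6% of siNfib-only and 46.9% of siNfia-only regions, against 56.7% of all. No gene lay within 100 kb of 11.6% of siNfib-only and 18.7% of siNfia-only regions, against 8.87% of all. The median rank of the summits in them was 62803 for siNfib-only and 59826 for siNfia-only regions, against 63792 for all regions and 28746 for shared ones.

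In the other cells of the study the classes also differed, by less. GNP libraries held 39.5% ± 2.33 of siNfib-only and 35.3% ± 1.00 of siNfia-only regions, and hyperplasia libraries 38.4% ± 0.325 and 35.7% ± 2.48 of the same classes (SD, n = 3 each). In tumor libraries the order was the other way, with 37.0% ± 1.99 of siNfib-only and 42.7% ± 1.25 of siNfia-only regions, and the values of the classes did not overlap. Untreated VDR cells held 17.5% ± 2.80 and 22.1% ± 4.12, but those lists were the weakest of the study, with scores at rank 100000 between 3.76 and 3.97. Of all regions of the 6 knockdown libraries, a GNP library held 49.4% and a hyperplasia library 48.6% on average. A tumor library held 49.4% and an untreated VDR library 35.1% on average. Both classes were therefore less common in every one of these cells than regions in general.

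**Figure D2:**
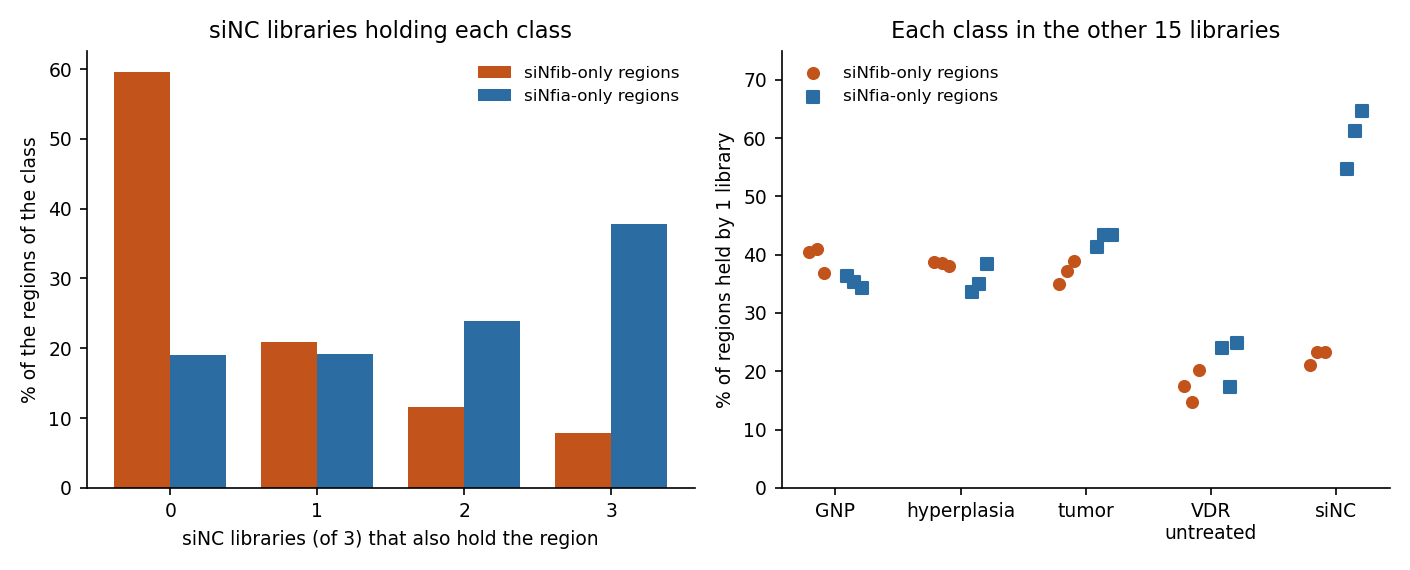
Left, percent of siNfib-only and siNfia-only regions that 0, 1, 2 or 3 of the siNC libraries also held; right, percent of each class held by each of the 15 libraries outside the comparison (1 point per library). In siNC libraries a library holds 22.5% of siNfib-only regions on average and 60.1% of siNfia-only regions.

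The highest-ranked siNfib-only regions were near the top of their lists and deep in, or missing from, the others. A region at chr6:112062899-112063398 with no gene within 100 kb ranked 820, 977 and 494 in siNfib libraries, was not among the kept siNfia summits and ranked 54650 and 87517 in siNC replicates 1 and 3. A region in Pou2f1, which encodes the octamer-binding factor OCT1, at chr1:165966447-165966946 ranked 668, 2997 and 1423 in siNfib libraries and 76908 in siNC replicate 3, with the nearest kept siNfia summit 506 bp from its centre. Both had weaker siNfia summits beyond rank 100000. Regions in Cdkal1 (a tRNA-modifying enzyme) at chr13:29271302-29271801 and in Prmt8 (an arginine methyltransferase of neurons) at chr6:127701066-127701565 ranked between 1760 and 4870 in siNfib libraries and had no summit inside them in the whole siNfia lists. In siNC libraries the Cdkal1 region ranked 97264 in replicate 1 and the Prmt8 region 54791 and 62657 in replicates 1 and 2. Within 1 kb of a gene end the highest was in Slc1a3, the glutamate transporter GLAST of Bergmann glia and astrocytes, at chr15:8634295-8634794, with ranks of 7874, 7680 and 5871 in siNfib libraries. The Slc1a3 region ranked 98410 and 68304 in siNC replicates 1 and 3. Its siNfia summits ranked 108913, 110726 and 157325, beyond the 100000 used. One in Matn2 (a matrix protein) at chr15:34347938-34348437 ranked 7129, 13054 and 12769 in siNfib libraries and was held by no siNC library.

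The highest-ranked siNfia-only regions were, in contrast, high in control cells too. All 5 of them were held by 3 of 3 siNC libraries. A region 6.4 kb from Lbh, a transcriptional cofactor, at chr17:72911675-72912174 ranked 1795, 2245 and 3185 in siNfia libraries and 11283, 10271 and 19199 in siNC libraries. Its siNfib summits ranked 199282, 170655 and 101751, just or far beyond the 100000 used. A region in Ddr2, a collagen receptor tyrosine kinase, at chr1:170014842-170015341 ranked 1812, 4069 and 3906 in siNfia libraries and 16411, 6607 and 7540 in siNC libraries, and siNfib replicate 1 had no summit there at all. A region in Sntb1, a syntrophin, at chr15:55752063-55752562 ranked 2009, 8078 and 2717 in siNfia libraries and 28486, 10808 and 10740 in siNC libraries.

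Counted by gene, the most siNfib-only regions were in Gse1 with 12, Srgap3 (a Rac-directed GTPase activator of the Slit-Robo family) with 10, Agap1, Auts2, Ptprd and Ptprn2 with 9 each and Arid1b, a subunit of BAF chromatin remodelling complexes, with 8. Auts2 also held 3 siNfia-only regions, Ptprd 2, and Srgap3 and Agap1 1 each. The siNfia-only regions were most frequent in Sema5a with 6, followed by Alk, Ctnna2, Erbb4, Gpc6, Macrod2, Nkd1, Nrp1 and Ralgps1 with 5 each. Of these, Ctnna2 and Macrod2 also held 4 siNfib-only regions each, Erbb4 3, Sema5a and Gpc6 2 each and Nkd1 and Ralgps1 1 each. These are counts in genes with many regions and were not set against the number of regions in each gene.

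To compare genes, each region was assigned to the gene body holding its centre or to the nearest within 100 kb, and limma was fitted to each gene's count of occupied regions on a log2(count + 1) scale, with Benjamini-Hochberg adjustment over 6517 genes with a mean of at least 3 regions. At an adjusted p below 0.05, 111 genes differed (1.7% of those tested), 52 of them higher (0.798%) and 59 lower (0.905%) after siNfib than after siNfia. At an unadjusted p below 0.05 there were 1178 genes, and in 1042 (16%) the values of the 2 knockdowns did not overlap. The differences were small in regions, with a median of 3.67 and a maximum of 15 regions per gene, and 6 genes were called on at most 1 region. The calls did not hold when 1 library was left out: 13, 0 and 1 genes were called without siNfib replicates 1, 2 and 3 in turn, and 38, 72 and 24 without siNfia replicates 1, 2 and 3. Of the 111 genes, 56 were called in none of these 6 fits and 7 in 4 of them, which was the most.

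Those 7 were Slc12a3, Maf, Rasgrf1, Spsb4, Myo1d, Diras2 and Gap43, and they are singled out here after their values were seen. Gap43, a growth-cone protein of extending axons, had 13, 13 and 13 occupied regions in siNfib libraries, 8, 8 and 8 in siNfia libraries and 10, 9 and 10 in siNC libraries (log2 change 0.64 ± 0.0559 SE, limma adjusted p 0.00998). Rasgrf1, a calcium-responsive exchange factor for Ras, had 5, 5 and 4 regions in siNfib libraries, 13, 11 and 11 in siNfia libraries and 10, 12 and 10 in siNC libraries (log2 change -1.16 ± 0.113, limma adjusted p 0.0121). The knockdowns did not overlap in either gene, as in all 111 called genes. For Gap43 the direction turned at 50000 summits (log2 change -0.42), and for Rasgrf1 it held.

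Among the largest rises after siNfib over siNfia, Olfm2, which encodes the secreted glycoprotein olfactomedin 2, had 11, 9 and 10 regions in siNfib libraries, 3, 2 and 4 in siNfia libraries and 6, 5 and 8 in siNC libraries, with a log2 change of 1.49 ± 0.215 (limma adjusted p 0.0276). Eya2, a transcriptional coactivator with phosphatase activity, had 5, 7 and 6 regions in siNfib libraries against 1, 3 and 1 in siNfia libraries (log2 change 1.46, limma adjusted p 0.0493). Cacna1h, a T-type calcium channel, had 7, 10 and 8 regions in siNfib libraries, 3, 2 and 3 in siNfia libraries and 2, 3 and 3 in siNC libraries (log2 change 1.35, limma adjusted p 0.0243). In Olfm2 and Eya2 the siNC counts stood between the knockdowns or next to siNfib, whereas in Cacna1h siNC and siNfia were alike. Myo1d, an unconventional myosin, had 12, 9 and 9 regions in siNfib libraries and 4 in each siNfia library, and Diras2, a small GTPase, 5, 6 and 5 in siNfib libraries and 2 in each siNfia library. The other members of this top 10 were Clstn1 (calsyntenin 1), Wscd2, Rph3al (a Rab effector of exocytosis), Gm42166 and Cd247, with log2 changes between 1.05 and 1.34. With 1 library left out, Olfm2 was called in 2 of 6 fits and Eya2 and Cacna1h in 1 each. At 50000 summits Olfm2 (4, 1 and 1 against 1, 2 and 1 regions) and Myo1d (4, 1 and 3 against 2, 3 and 3) overlapped. Eya2 (2, 3 and 2 against 0, 0 and 0) and Cacna1h (1, 1 and 1 against 0, 0 and 0) did not. Only Rph3al of these 10 was tested there (log2 change 0.16, limma adjusted p 0.708).

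The largest falls included a nuclear receptor and exchange factors for Ras. Pparg, the nuclear receptor of adipocyte differentiation, had 2, 1 and 1 regions in siNfib libraries, 5, 6 and 6 in siNfia libraries and 3, 4 and 4 in siNC libraries (log2 change -1.54 ± 0.177, limma adjusted p 0.0164). Rasgrp3, a diacylglycerol-responsive exchange factor for Ras, had 1 region in each siNfib library, 4, 5 and 4 in siNfia libraries and 4, 3 and 4 in siNC libraries (log2 change -1.41, limma adjusted p 0.00998). Col14a1, a fibril-associated collagen, had 3, 5 and 4 regions in siNfib libraries, 11, 12 and 12 in siNfia libraries and 10, 5 and 7 in siNC libraries (log2 change -1.36, limma adjusted p 0.0393). In all 3 the knockdowns were separated by at least 3 regions, with siNC between them in Pparg and mostly so in Col14a1, and beside siNfia in Rasgrp3. The others were Agr3, Acsbg1, Slc16a10 (an aromatic amino acid transporter), Galnt5, Pamr1 and Zfp618 beside Rasgrf1, with log2 changes between -1.27 and -1.13. With 1 library left out, Pparg was called in 3 of 6 fits, Rasgrp3 in 1 and Col14a1 in 0. At 50000 summits the knockdowns overlapped in Rasgrp3, with 0, 1 and 0 against 1, 2 and 3 regions. Its siNC libraries had 1, 0 and 1 there. Slc16a10 had 0 regions there in each siNfib and siNfia library. Pparg (0, 1 and 0 against 3, 3 and 3) and Col14a1 (2, 2 and 2 against 5, 5 and 4) did not overlap. Across the 59 genes that fell, the mean siNC count was closer to siNfia in 50 and to siNfib in 9, and across the 52 that rose it was closer to siNfia in 27 and to siNfib in 25.

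**Figure D3:**
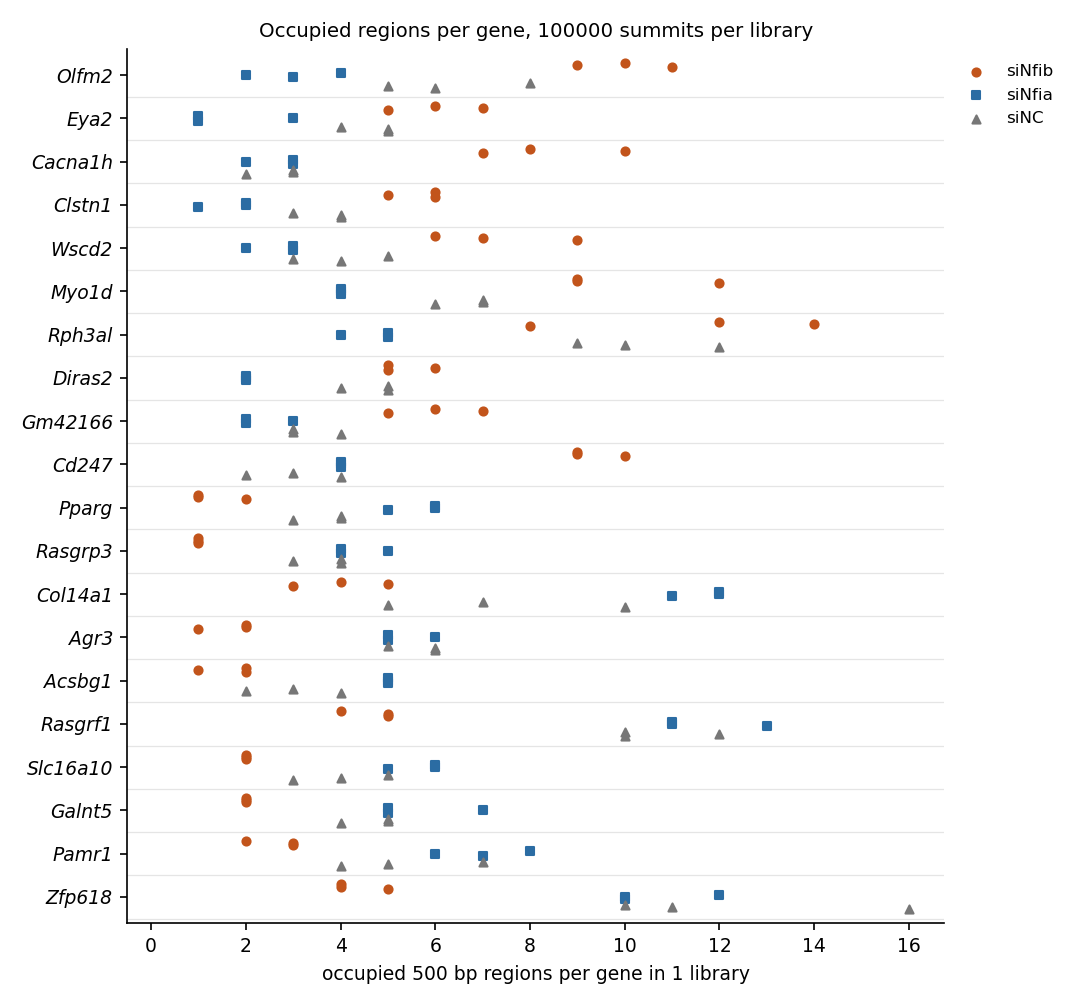
Occupied 500 bp regions per gene (x axis, count) in each library, at 100000 summits per library, for the 10 largest rises (upper rows) and 10 largest falls (lower rows) after siNfib over siNfia. siNfib points and siNfia points do not overlap in any of the 20 genes, which holds for all 111 called genes. siNC points lie mostly between them or beside siNfia among the falls.

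With the 50000 highest summits, 182 of 3184 genes were called (5.72%), 87 higher and 95 lower after siNfib, at an unadjusted count of 760 genes. Leaving out 1 library gave 100, 119 and 55 calls without siNfib replicates 1, 2 and 3, and 124, 138 and 124 without siNfia replicates 1, 2 and 3. In these fits 39 genes were called in all 6, 19 higher and 20 lower. Of those 39, 12 differed by no more than 1 region with equal counts within each knockdown, such as Nfe2l2 (the stress factor NRF2) with 3 regions in each siNfib and 4 in each siNfia library, so a call there rests on a single summit. Of the 182 genes, 17 were also called at 100000 (9.34% of the shorter and 15.3% of the longer list), all in the same direction. They were Tut7, Prkcb, Neurod4, Armc2, Agap1, Apba2 and Igdcc3, which rose, and Upp2, Sema5a, Gxylt2, Snap25, Arhgap15, Gm973, Efr3a, Zfp618, Rasgrf1 and Col14a1, which fell. Of all 182, 168 had the same sign at 100000. The 50000 summits are part of the 100000 of the same library, so the signs are not independent.

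Sema5a, a transmembrane semaphorin that guides axons and can attract or repel them, fell at both list lengths. At 50000 summits it had 7, 8 and 8 regions in siNfib libraries, 16, 16 and 16 in siNfia libraries and 14, 15 and 13 in siNC libraries (log2 change -0.97 ± 0.0647, limma adjusted p 0.00073, called in 6 of 6 fits with a library left out). At 100000 summits it had 18, 19 and 20 regions in siNfib libraries, 27, 31 and 28 in siNfia libraries and 26, 24 and 24 in siNC libraries (log2 change -0.57 ± 0.0700, limma adjusted p 0.0231), called in 2 of 6 fits with a library left out. At both lengths the siNfib counts lay below every siNfia and siNC count. Nrp1, a co-receptor of class 3 semaphorins and of VEGF, fell at 100000 with 15, 13 and 12 regions in siNfib libraries, 21, 24 and 23 in siNfia libraries and 21, 20 and 17 in siNC libraries (log2 change -0.73, limma adjusted p 0.0279), called in 0 of 6 such fits. At 50000 Nrp1 had 8, 9 and 8 regions in siNfib libraries and 8, 6 and 11 in siNfia libraries and did not pass the test (log2 change 0.033).

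Zic1, from the granule progenitor list, and Neurod4, in none of the lists and singled out after its values were seen, rose after siNfib at 50000 summits. Zic1, a zinc-finger factor of granule progenitors, had 6, 6 and 7 regions in siNfib libraries, 3, 2 and 2 in siNfia libraries and 6, 7 and 7 in siNC libraries at 50000 summits (log2 change 1.15 ± 0.13, limma adjusted p 0.00657). At 100000 its counts were 11, 14 and 13 in siNfib libraries, 10, 12 and 9 in siNfia libraries and 12, 13 and 14 in siNC libraries, which overlap and gave a limma adjusted p of 0.300. Neurod4, a proneural bHLH factor, had 6, 6 and 7 regions in siNfib libraries, 2, 2 and 2 in siNfia libraries and 3, 3 and 5 in siNC libraries at 50000 (log2 change 1.29 ± 0.158, limma adjusted p 0.00924). At 100000 Neurod4 had 9, 8 and 8 regions in siNfib libraries, 5, 5 and 4 in siNfia libraries and 7, 8 and 6 in siNC libraries (log2 change 0.72, limma adjusted p 0.0354), a call made in 0 of 6 fits with a library left out. Zic1 and Neurod4 were each called at 50000 in all 6 fits with a library left out, and siNC stood with siNfib for Zic1 and between the knockdowns for Neurod4. Olig3, a bHLH factor of the rhombic lip from which granule progenitors arise, had 4, 5 and 4 regions in siNfib libraries, 2, 2 and 2 in siNfia libraries and 3, 3 and 4 in siNC libraries at 50000 (log2 change 0.82, limma adjusted p 0.0114), and is named after its values were seen. At 100000 its log2 change of 0.43 did not pass (limma adjusted p 0.380).

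The 22 gene lists described next were chosen with earlier results of these data known, and their counts are descriptions. Granule progenitor genes numbered 18 tested at 50000, of which Zic1 and the Notch target Hes5 rose and none fell (median log2 change 0.09, against 0 over all 3184 genes). Of 18 granule neuron maturation genes tested, Tubb3, the neuronal beta-tubulin, and Chd7, a chromodomain remodeller, rose and the potassium leak channel gene Kcnk9 fell. Tubb3 had 14 regions in each siNfib library and 11, 10 and 11 in siNfia libraries (log2 change 0.36, limma adjusted p 0.0133), and Chd7 had 7, 7 and 6 against 4, 4 and 4 (log2 change 0.61, limma adjusted p 0.0122). Of 10 Notch pathway genes, Hes5 and Maml3, a coactivator of the Notch intracellular domain, rose. Maml3 had 20, 20 and 21 regions in siNfib libraries, 15, 15 and 15 in siNfia libraries and 16 in each siNC library (log2 change 0.41 ± 0.0284, limma adjusted p 0.00073), a narrow separation without overlap. The shares of these lists that were called stood at 2 of 18, 3 of 18 and 2 of 10 beside 5.72% of all genes.

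Of 23 axon guidance genes tested at 50000, the netrin receptor gene Unc5b rose and Sema5a fell. Beside this count and those of the lists that follow stand 5.72% of all genes called. Unc5b had 5, 6 and 7 regions in siNfib libraries, 3, 3 and 2 in siNfia libraries and 6, 5 and 5 in siNC libraries (log2 change 0.94, limma adjusted p 0.0199). Of 13 Hedgehog pathway genes, Pdzrn3, an E3 ubiquitin ligase, and Sfrp1, a secreted Wnt antagonist that is also in the Wnt list, fell, and none rose. No other gene of the Hedgehog list was called. Pdzrn3 had 1, 2 and 1 regions in siNfib libraries, 5, 4 and 4 in siNfia libraries and 3, 4 and 4 in siNC libraries (log2 change -1.21, limma adjusted p 0.0169). Sfrp1 had 2, 3 and 2 in siNfib libraries, 5, 5 and 6 in siNfia libraries and 4, 6 and 5 in siNC libraries (log2 change -0.94, limma adjusted p 0.0251). Of 13 BMP and TGF-beta genes the receptor gene Tgfbr2 fell, Chd7, which is also 1 of 14 chromatin regulators tested, rose, of 6 Hippo genes the effector gene Tead1 rose, of 9 Wnt genes Sfrp1 fell and of 7 NFI-linked genes from other tissues Hes5 rose. With 1 library left out, Chd7 and Maml3 were called in 6 of 6 fits, Tubb3 in 5, Unc5b and Pdzrn3 in 4, Hes5 and Tead1 in 2, and Tgfbr2, Sfrp1 and Kcnk9 in 1. No tested gene was called among the 4 NFI genes, 6 AP-1 and immediate early genes, 8 cell cycle genes, 4 tumour suppressors, 2 neural stem and glial progenitor genes and 18 cadherins and adhesion genes, nor in the 6 marker lists of other cell types. Of the list members called at 50000, only Sema5a also passed the test at 100000. There the knockdowns overlapped in Pdzrn3 (7, 8 and 7 against 9, 8 and 6 regions) and Unc5b (11, 8 and 9 against 6, 7 and 10). They also overlapped in Chd7 (11, 16 and 14 against 12, 8 and 9), among others.

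At 100000 summits, where 1.7% of all genes were called, the called list members were Sema5a and Nrp1 among 25 axon guidance genes and Maf, a large bZIP factor, among 12 AP-1 and immediate early genes, all lower after siNfib. Maf had 3 regions in each siNfib library, 5 in each siNfia library and 4 in each siNC library (log2 change -0.58, limma adjusted p 0.00998). This difference was absent at 50000 summits, where Maf had 2, 1 and 2 regions in siNfib and 2, 1 and 2 in siNfia libraries. It stayed below the minimum for the test there. In the BMP and TGF-beta list at 100000 summits, 4 of 18 tested genes lay above 0 and 14 below. Their median log2 change was -0.12 against 0 over all genes. Its 4 members without overlap between the knockdowns, Bmpr1a, Bmpr2, Smad6 and Tgfbr2, had lower counts after siNfib, but none passed the test, and 4 of 18 stands beside 16% of all genes without overlap (limma adjusted p from 0.0965 for Tgfbr2 to 0.132 for Bmpr2). Bmpr2, the type II BMP receptor, had 6, 8 and 7 regions in siNfib libraries, 10, 15 and 10 in siNfia libraries and 11, 8 and 8 in siNC libraries.

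None of the NFI genes passed the test. Nfia had 45, 50 and 46 regions in siNfib libraries, 46, 50 and 48 in siNfia libraries and 45, 46 and 51 in siNC libraries, and Nfib had 99, 97 and 82 in siNfib libraries, 95, 86 and 97 in siNfia libraries and 124, 88 and 80 in siNC libraries. Their log2 changes were -0.03 ± 0.0684 and -0.00 ± 0.162. Nfic, with 13, 15 and 13 regions in siNfib libraries and 11, 10 and 11 in siNfia libraries, did not overlap between the knockdowns, but its log2 change of 0.33 missed the threshold (limma adjusted p 0.138). Nfix had 33, 32 and 33 regions in siNfib libraries and 30, 34 and 29 in siNfia libraries (log2 change 0.08). Open regions at a gene do not measure its transcript.

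At 100000 summits Ptch1, Gli1, Gli2 and Atoh1 did not pass the test. Ptch1, the Hedgehog receptor, had 16, 13 and 17 regions in siNfib libraries and 14, 18 and 19 in siNfia libraries, and Gli1, a Hedgehog effector and target, 3, 4 and 5 against 6, 4 and 5. Gli2, the main activating Hedgehog effector, had 64, 63 and 62 in siNfib libraries, 75, 83 and 71 in siNfia libraries and 73, 79 and 60 in siNC libraries, which did not overlap between the knockdowns and gave a log2 change of -0.27 (limma adjusted p 0.235). Atoh1, the bHLH factor of granule progenitors, had 17, 16 and 18 regions in siNfib libraries and 12, 15 and 20 in siNfia libraries. Over 24 granule lineage markers the summed regions ran from 243 to 262 in siNfib libraries and from 238 to 250 in siNfia libraries. Neurod1, a granule neuron factor, had 2, 2 and 2 regions in siNfib libraries and 2, 2 and 3 in siNfia libraries and stayed below the minimum for the test.

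Markers of other cell types differed by few regions between the knockdowns. Summed regions of 11 astrocyte markers ran from 52 to 56 in siNfib and from 48 to 49 in siNfia libraries, with Aqp4 and Aldoc at 0, and those of 10 oligodendrocyte lineage markers from 38 to 41 and from 35 to 36, with Olig2 and Mag at 0. Microglial and immune markers (10 genes) ran from 11 to 14 in siNfib and from 12 to 15 in siNfia libraries, with Csf1r, Itgam and Tyrobp at 0. Endothelial and mural markers (10 genes, none at 0) ran from 27 to 29 and from 23 to 26, fibroblast and mesenchymal markers (13 genes) from 46 to 53 and from 50 to 57 with Twist1 at 0, and Purkinje cell and interneuron markers (12 genes) from 61 to 71 and from 68 to 86, with Calb1, Car8, Ptf1a and Pax2 at 0. The astrocyte, oligodendrocyte and endothelial sums did not overlap and were higher after siNfib. Of 5 oligodendrocyte genes tested, 2 lay above 0 and 3 below (median log2 change -0.0099). Pdgfra was higher after siNfib (13, 11 and 12 against 8, 9 and 9 regions). So was Mbp (11, 13 and 11 against 9, 10 and 10). Sox10 was lower (3, 3 and 3 against 5, 4 and 4). Only 2 endothelial and mural genes were tested. Sums of the Hippo list were also higher without overlap, and those of the Hedgehog and the BMP and TGF-beta lists lower. The part of cell composition in any result was not tested.

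Among the 10 largest falls at 50000 summits, Col5a1, a fibrillar collagen chain, had 1, 1 and 2 regions in siNfib libraries, 8, 9 and 6 in siNfia libraries and 9, 6 and 6 in siNC libraries (log2 change -1.90 ± 0.231, limma adjusted p 0.00887). Qpct, glutaminyl-peptide cyclotransferase, had 2, 1 and 1 regions in siNfib libraries and 6 in each siNfia library, and Tpcn2, an endolysosomal cation channel, 4, 5 and 5 against 12, 11 and 11 (log2 changes -1.61 and -1.13, limma adjusted p 0.00407 and 0.00112). siNC stood with siNfia in all 3, at 9, 6 and 6 regions in Col5a1, 4, 5 and 5 in Qpct and 15, 15 and 13 in Tpcn2. At 100000 summits none of the 3 passed the test, with log2 changes of -0.45, -0.68 and -0.25. The Tpcn2 counts overlapped there, with 13, 19 and 15 regions in siNfib and 17, 20 and 19 in siNfia libraries. The other falls of this top 10 were Rhbdf2, Zfp618, Sh3rf3, Tshz2, Pdzrn3, Snap25 (a SNARE of synaptic vesicle release) and Srgap1.

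Elavl3, a neuronal RNA-binding protein, had 5, 4 and 5 regions in siNfib libraries, 1, 2 and 2 in siNfia libraries and 4, 2 and 3 in siNC libraries (log2 change 1.11, limma adjusted p 0.0403). Brsk2, a kinase of neuronal polarity, had 4 regions in each siNfib library, 2, 1 and 1 in siNfia libraries and 4 in each siNC library (log2 change 1.13, limma adjusted p 0.012). The netrin receptor gene Unc5a had 5, 6 and 5 in siNfib libraries and 2, 1 and 3 in siNfia libraries (log2 change 1.13, limma adjusted p 0.0418). These 3 had no overlap between the knockdowns, as was so for 618 of the 3184 genes tested at 50000 summits. At 100000 none of the 3 passed the test, and the Brsk2 counts met, at 8, 7 and 7 against 4, 7 and 5 regions. Beside them and Neurod4 and Zic1, the top 10 rises held Prkcb (protein kinase C beta), Ntng1 (netrin-G1), Map4, Map3k4 and Ranbp10. Ntng1 and Ranbp10 had log2 changes of -0.01 and -0.09 at 100000, so their direction turned there. Across the 95 genes that fell at 50000 the mean siNC count was closer to siNfia in 72 and to siNfib in 23, and across the 87 that rose it was closer to siNfia in 52 and to siNfib in 35.

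**Figure D4:**
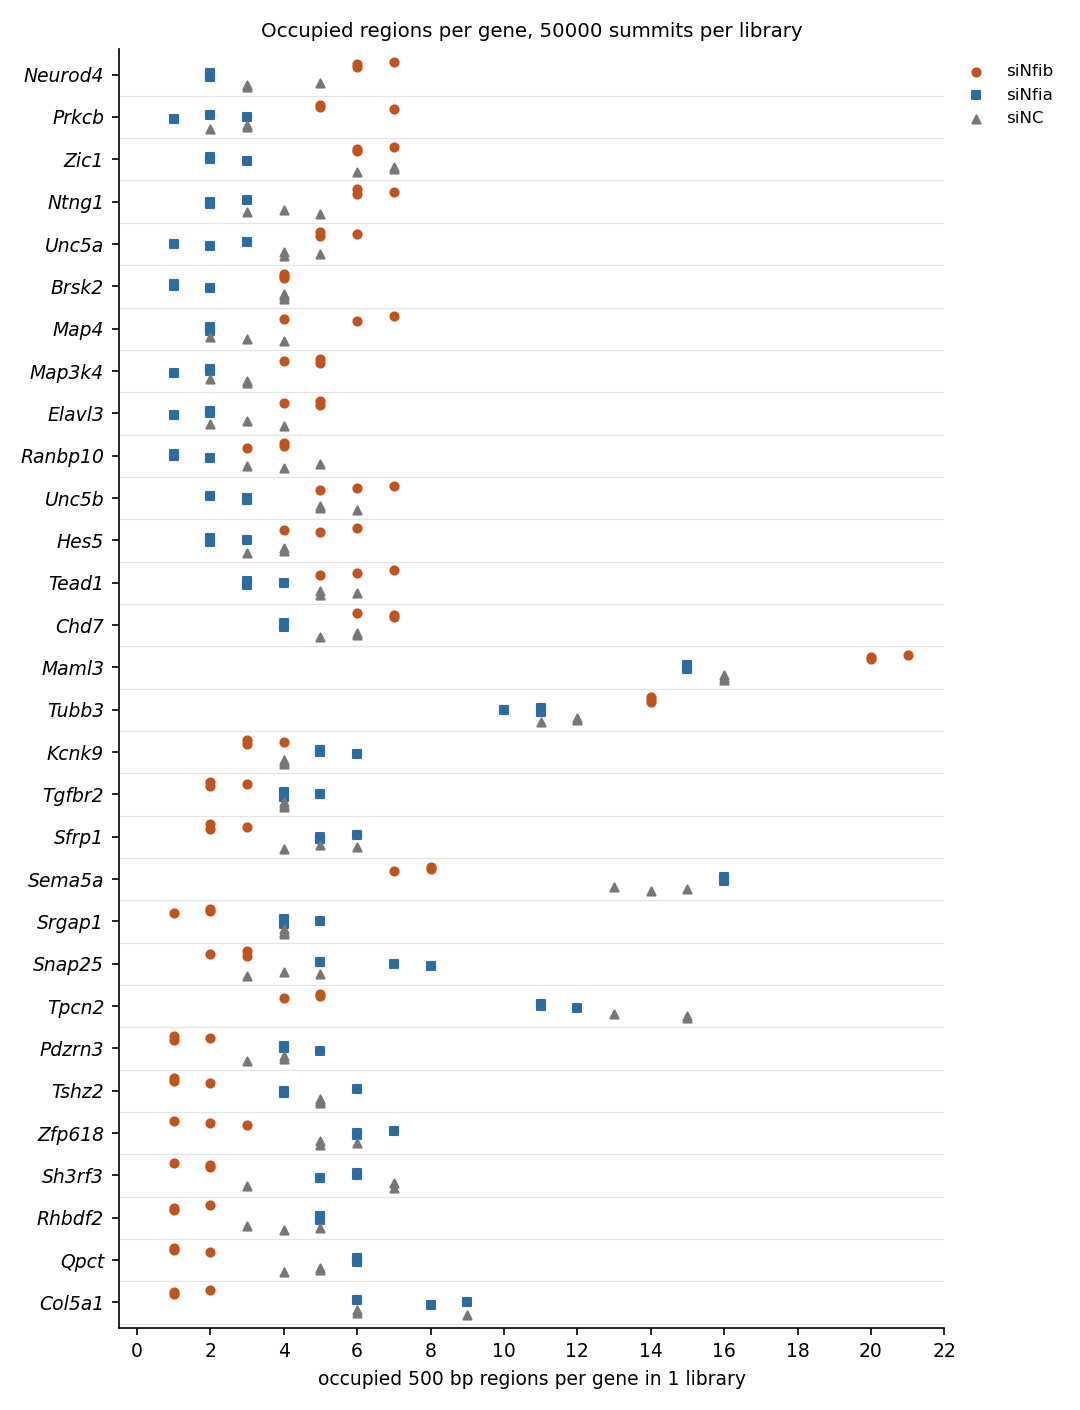
Occupied 500 bp regions per gene (x axis, count) in each library at 50000 summits per library, for called members of the gene lists that are named in the text and the 10 largest changes in each direction, ordered by log2 change of siNfib over siNfia. Rows down to Tubb3 have more regions after siNfib and rows from Kcnk9 down fewer, and siNC points of the lower rows lie mostly beside the siNfia points, as in Sema5a.

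Differences also gathered in broad segments. In bins of 1 Mb with a mean of at least 10 kept summits, 206 of 1899 bins differed (10.8%, limma adjusted p below 0.05), 93 higher and 113 lower after siNfib. Higher bins were richer in genes, with a median of 13 protein-coding genes against 5 in lower bins and 7 in all. The bin at 73 to 74 Mb of chromosome 1, which holds Tnp1 and Tns1, had 24, 24 and 23 summits in siNfib libraries, 48, 52 and 42 in siNfia libraries and 37, 40 and 29 in siNC libraries (log2 change -0.97 ± 0.12, limma adjusted p 9.27e-05). A bin in Erbb4, a neuregulin receptor, at 68 to 69 Mb of chromosome 1 had 11, 13 and 14 summits in siNfib libraries, 25, 24 and 24 in siNfia libraries and 16, 24 and 13 in siNC libraries (log2 change -0.90, limma adjusted p 0.00333). A bin in Ctnna2, the alpha-catenin of neurons, at 76 to 77 Mb of chromosome 6 had 9, 8 and 9 against 21, 17 and 16 summits (log2 change -0.97, limma adjusted p 0.00298). The other 2 of the 5 largest falls lay at 17 to 18 Mb of chromosome 15, with no gene, and at 73 to 74 Mb of chromosome 4.

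The rises were smaller. The largest was at 6 to 7 Mb of chromosome 8, which holds no protein-coding gene, with 16, 17 and 14 summits in siNfib libraries, 8, 9 and 9 in siNfia libraries and 12, 10 and 9 in siNC libraries (log2 change 0.78 ± 0.17, limma adjusted p 0.00809). A bin with Ncam1 and Drd2 at 49 to 50 Mb of chromosome 9 had 39, 36 and 42 summits in siNfib libraries, 31, 24 and 26 in siNfia libraries and 36, 27 and 25 in siNC libraries (log2 change 0.52, limma adjusted p 0.0172). Neither bin showed overlap between the knockdowns.

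Called bins were spread unevenly over chromosomes. Chromosome 5 had 18 higher bins and 1 lower and chromosome 7 had 14 higher and 1 lower, whereas chromosome 1 had 3 higher and 29 lower, chromosome 2 had 3 and 14 and chromosome 15 had 1 and 10. The median log2 change of all tested bins was 0.15 on chromosome 5 and 0.12 on chromosome 7, against -0.12 on chromosomes 1 and 2 and -0.10 on chromosome 15. Called genes numbered 4 higher and 2 lower on chromosome 5, 6 and 1 on chromosome 7, 2 and 10 on chromosome 1, 5 and 7 on chromosome 2, and 0 and 5 on chromosome 15. Within siNC, bins that were higher after siNfib were also higher in the strongest than in the weakest library in 61 of 93, and lower bins were lower there in 62 of 113, against 939 of 1893 over all bins with a change. In the bins the sign was the opposite in 26, 46 and 831, and the rest had equal counts. For called genes the same count was 18 of 52 and 23 of 59, against 2359 of 5985. The strongest and weakest siNC library had equal counts in 21 of the 52, 22 of the 59 and 1446 of the 5985 genes. The sign was the opposite in 13, 14 and 2180 genes. The part of library strength in the bins was not tested further.

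**Figure D5:**
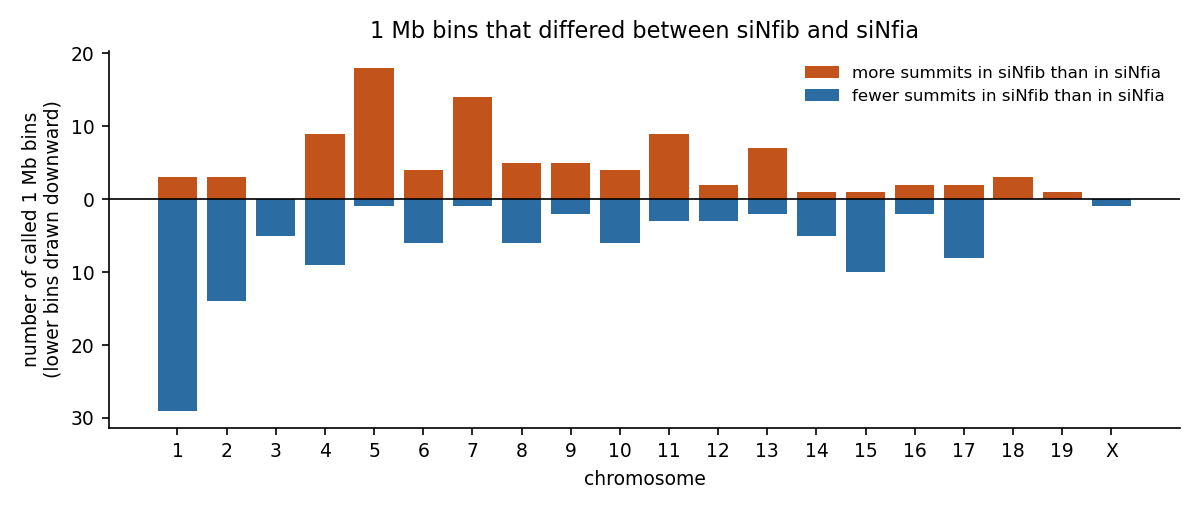
Number of 1 Mb bins per chromosome that differed between siNfib and siNfia (limma adjusted p below 0.05), with bins higher after siNfib drawn upward and lower ones downward. Chromosomes 5 and 7 show mostly higher bins (18 and 14) and chromosomes 1, 2 and 15 mostly lower ones (29, 14 and 10).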

How the data were processed

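Open chromatin was measured in 21 mouse libraries, of which the 3 siNfib, 3 siNfia and 3 siNC libraries of VDR cells entered the comparison. The deposited values are 1 summit list per library, scored by the caller on a −log10 scale. Whether the authors took p or q, and the threshold, are unknown here. Per the submitters' processing notes, Bowtie2, Picard and MACS2 were used with mm10. Read shifting and read depth are not given in the sources used here, so no counting interval is given.

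From these lists the 100000 (alternative 50000) highest summits of the autosomes and sex chromosomes were kept, merged over the 9 libraries into 123765 regions of 500 bp, and assigned to 21887 RefSeq protein-coding genes of GRCm38.p6 within 100 kb. Between 78.9% and 81.2% of kept summits lay in a region. Counts per gene and kept summits per 1 Mb bin were fitted as log2(count + 1) with limma 3.58.1 (R 4.3.3, trended empirical Bayes, 9 libraries, group means), tested on simulated data. Log2 changes are siNfib minus siNfia, ± is the SE for these and the SD for means. Single values were tested with exact permutation (scipy 1.17.1). Named genes were the 10 largest called changes in each direction, the NFI and lineage genes, and called list members. Results of some list members are not reported here. The named regions have the highest ranks, and the named bins the largest changes. The members and lists were chosen with earlier results of these data known. Replicate numbers of siNfib and siNfia did not pair the libraries (correlations of deviations -0.0113, -0.00261 and 0.0316). No genome sequence was used here, so motifs were searched in RefSeq promoter windows only.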

Additional observations from a re-analysis of the deposited data

How the results depend on the processing

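The count of 111 genes at 100000 summits was the least stable result. It became 182 at 50000 summits, 270 with whole lists (267 higher and 3 lower, with the median of all genes shifted by 0.21), 34 with the 12 VDR libraries, 278 without a filter on low counts, 6 without the strongest siNfib and weakest siNfia list (chosen after seeing the data), and between 0 and 72 with 1 siNfib or siNfia library left out (91 to 142 without a siNC library). Replicate numbers as a block, which the data do not bear out as pairs, gave 0 genes (1190 at an unadjusted p below 0.05) and 226 bins. The 182 genes at 50000 summits became 55 to 138 with 1 library left out. The 206 bins became 405 with whole lists (396 higher and 9 lower, median shifted by 0.31), 428 with the 6 libraries alone, 407 without siNC replicate 1 (209 to 407 without a siNC library), 16 with the 12 VDR libraries, and 58 to 126 with 1 siNfib or siNfia library left out. Centring on the median of each library gave 115 higher and 89 lower bins. The cause of these changes was not tested.

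The 3803 siNfib-only regions became 2290 at 50000 summits, 9622 with whole lists, 1559 when absent from whole lists, 6199 without the strongest and weakest list, and 4833 to 5131 with 1 library left out. The 2605 siNfia-only regions became 1531 with whole lists, 303 when absent from whole lists, 5128 without the strongest and weakest list, and 3199 to 4190 with 1 library left out. The excess of the Jaccard index within groups over that between them was 0.0911, and 0.0572 with whole lists (0.0622 to 0.126 with 1 library left out). The difference near gene ends of 1.96 points was 1.20 within 500 bp and -1.05 with whole lists. Of 574 values of called named genes under alternatives, 333 kept their call and 571 their direction, which several of the settings could not turn. Of all 111 called genes, 92 kept their direction with whole lists. The 3 named values that reversed were Agr3 with whole lists (0.21), and Nrp1 (0.033) and Gap43 (-0.42) at 50000 summits. Read depth is unknown, so a missing summit may be a weak one.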
